A study of Mus with 6 samples.

Results

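The genes described here encode 4 receptor chains of the gp130 cytokine family (Il6st, Lifr, Il6ra and Osmr), the kinases Jak1 and Jak2, the transcription factor Stat3 and the feedback inhibitors Socs1, Socs2 and Socs3. They were chosen by symbol, as 10 of the 20893 genes in the deposited FPKM table, and all 10 were found. FPKM is the number of sequenced fragments scaled to transcript length and to the size of the library. Levels can thus be compared between genes, apart from a trend on transcript length described below. The samples were 3 libraries from wild-type mice (WT) and 3 from Ccl28 knockout mice (KO), each made from cardiac microvascular endothelial cells collected on magnetic beads as CD45- CD31+. Every mouse of both genotypes had the left coronary artery ligated, so no uninjured heart is in the comparison. Replicates are numbered 2, 3 and 4 in both genotypes. How the Ccl28 allele was made, the strain, sex and age of the mice, the time after ligation and the number of animals behind a library were not given in the sources used here, so p-values measure the spread between these libraries, which may be technical.

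Cytokines such as IL-6, LIF and oncostatin M signal through gp130, the shared chain encoded by Il6st. The ligands add further chains, among them Il6ra for IL-6, Lifr for LIF and Osmr for oncostatin M. The assembled receptor activates the kinases JAK1 and JAK2, which phosphorylate STAT3. STAT3 moves to the nucleus and switches on genes that include Socs3, whose product binds gp130 and the kinase and ends the signal. In the heart, gp130 signalling is known for protecting cardiomyocytes after injury, and in endothelium for inflammatory activation and vessel growth.

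Some features of the libraries bear on everything below. The genotype field of KO replicates 3 and 4 reads Ccl29-KO and Ccl30-KO, against titles that read Ccl28-KO, and the titles were followed. Ccl28 had 16, 11 and 24 reads in WT replicates 2, 3 and 4 and 0 reads in each KO library, which makes it at least 5.3-fold lower when each KO library is set to a floor of 3 reads (exact two-sided permutation p = 0.1, the smallest that 3 against 3 libraries allow). The libraries held 36004457 to 40500067 reads assigned to genes. Endothelial identity was clear, with Pecam1 at 705 ± 35.9 FPKM in WT and 611 ± 45.1 in KO (SD, n = 3 each), and Ptprc, which encodes CD45, between 0.871 and 1.71 FPKM in the 6 libraries. Differences between the genotypes were widespread: of 10806 tested genes, 25.8% were called lower and 18.3% higher in KO by limma at an adjusted p under 0.05. Long transcripts were mostly lower and short ones mostly higher (Spearman's rho of length with log2 fold change -0.72 over 10806 genes, which are not independent replicates). In these bulk samples, fewer cells of a type and less RNA per cell cannot be told apart.

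In KO, the receptor genes Il6st, Lifr and Osmr, both kinases and Stat3 were lower, while the 3 SOCS genes did not pass the test and had slightly higher mean levels. With a trend on transcript length removed, Il6st was the 1 of these genes still called lower, and Socs2 was called higher. That call of Socs2 rests on the length implied for it, 13086 nt. Il6st and Lifr had the largest reductions among the 10 genes, with mean FPKM at 0.647 and 0.628 of WT, followed by Osmr, Jak1, Jak2 and Stat3 at 0.758 to 0.848. Of the 9 genes that could be tested, 6 were called lower, set beside 25.8% of all tested genes, and 3 did not pass. Il6ra lay under the expression filter. For these 6 genes every KO library was below every WT library, a pattern found in 31.9% of all tested genes.

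**Figure D1:**
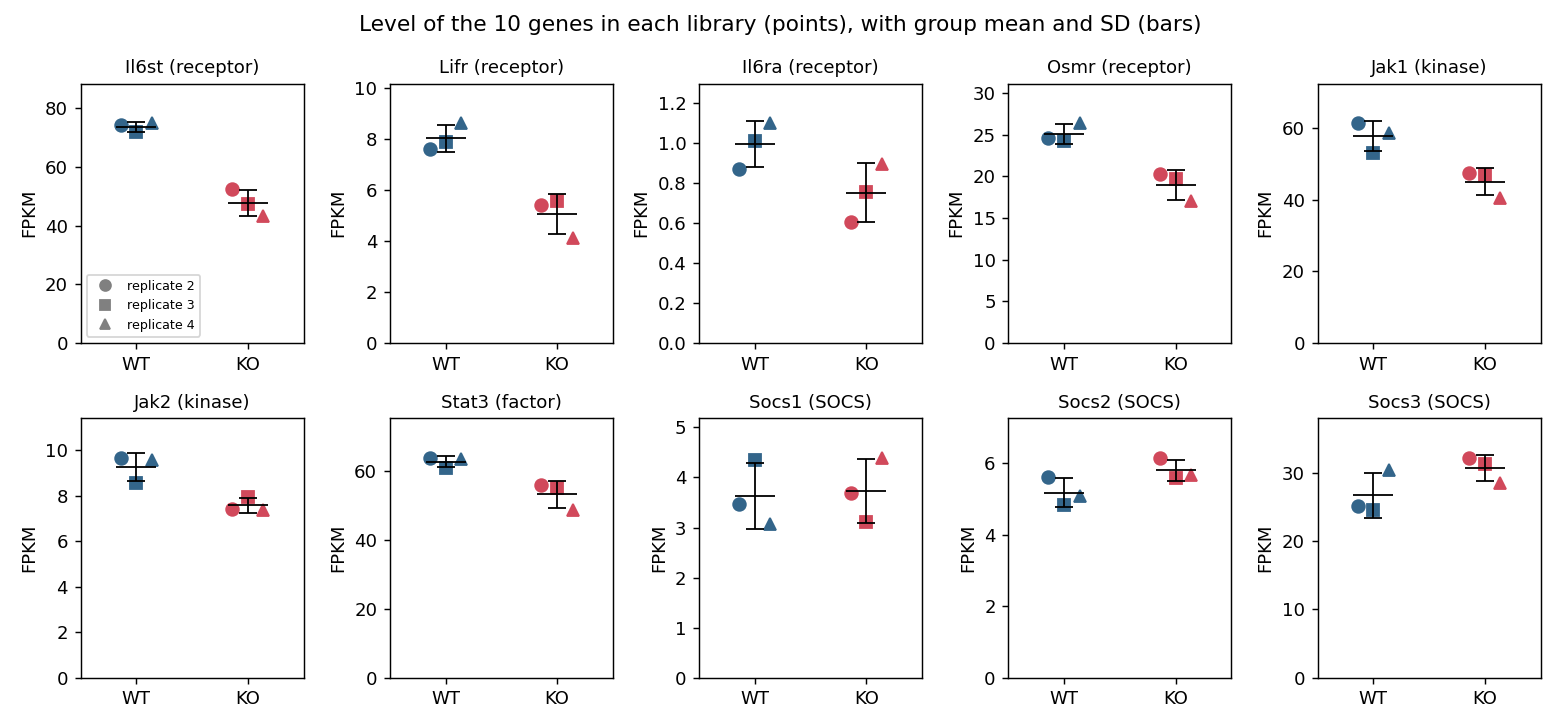
FPKM of each of the 10 genes in each library (points, with the shape giving the replicate number) for WT and KO; bars give the group mean and SD, n = 3, and each panel starts at 0. The KO points lie below all WT points for Il6st, Lifr, Osmr, Jak1, Jak2 and Stat3, and the groups overlap for Il6ra, Socs1, Socs2 and Socs3.

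Il6st (gene ID 16195, chromosome 13 from 112464070 to 112506860, GRCm38) encodes gp130 itself. The targeted gene Ccl28 lies on the same chromosome, and whether linkage to it bears on Il6st was not tested. It had 74.4, 71.8 and 74.9 FPKM in WT replicates 2, 3 and 4, and 52.3, 47.4 and 43.3 FPKM in KO replicates 2, 3 and 4. The WT libraries lay within a narrow band, and the highest KO library was well under the lowest WT library. The mean fell by 35.3%, from 73.7 ± 1.68 to 47.7 ± 4.53 FPKM (log2 fold change -0.62, SE 0.08, limma adjusted p = 0.000592). All log2 fold changes compare KO with WT after 1 was added to each FPKM, so for genes of low level they are smaller than the change in FPKM.

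Lifr (gene ID 16880, chromosome 15 from 7090610 to 7197489) encodes the chain that pairs with gp130 for LIF and cardiotrophin signals. Its level was 7.6, 7.89 and 8.63 FPKM in WT replicates 2, 3 and 4, against 5.43, 5.57 and 4.14 FPKM in the KO replicates in the same order. KO replicate 4 was the lowest library for Lifr, as it was for Il6st. Lifr fell by 37.2% (log2 fold change -0.59, SE 0.11, limma adjusted p = 0.00272). Its ratio to Il6st within a library was 0.109 ± 0.00658 in WT and 0.106 ± 0.011 in KO, so the groups of ratios overlapped (exact permutation p = 0.8).

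Osmr (gene ID 18414, chromosome 15 from 6813568 to 6874968), which encodes the oncostatin M chain, was more abundant than Lifr. It had 24.6, 24.3 and 26.4 FPKM in WT and 20.3, 19.7 and 17 FPKM in KO, in replicate order. The groups were separate, and replicate 4 was again at the extreme end of both. Osmr fell by 24.2% (log2 fold change -0.39, SE 0.08, limma adjusted p = 0.00548).

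Il6ra (gene ID 16194, chromosome 3 from 89869324 to 89913196), the ligand-binding IL-6 chain, was the least abundant of the 10 genes. Its level was 0.87, 1.01 and 1.1 FPKM in WT and 0.603, 0.757 and 0.896 FPKM in KO, from 77 to 146 reads per library. KO replicate 4 was above WT replicate 2, so the groups overlapped (p = 0.2 in an exact two-sided permutation test). Only without the filter did limma test Il6ra, and it did not pass (log2 fold change -0.19 at an adjusted p of 0.226).

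The kinases were reduced by less than Il6st. Jak1 (gene ID 16451, chromosome 4 from 101151974 to 101265282), which encodes the main kinase on gp130, had 61.4, 53.2 and 58.6 FPKM in the WT libraries and 47.4, 46.9 and 40.6 FPKM in the KO libraries. No KO library reached the lowest WT library. Jak1 fell by 22.1% (log2 fold change -0.35, SE 0.09, limma adjusted p = 0.00842).

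Jak2 (gene ID 16452, chromosome 19 from 29251803 to 29313095), which serves cytokine and growth hormone receptors, was less abundant. It had 9.65, 8.56 and 9.58 FPKM in WT and 7.39, 7.95 and 7.37 FPKM in KO. The gap between the groups was small, between KO replicate 3 and WT replicate 3. Jak2 fell by 18.3% (log2 fold change -0.26, SE 0.08, limma adjusted p = 0.0304). The call for Jak2 depended on single libraries: leaving out replicate 2 or 4 of WT gave an adjusted p of 0.0819 or 0.11, and leaving out replicate 2 or 4 of KO one of 0.0884 or 0.0782.

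Stat3 (gene ID 20848, chromosome 11 from 100886806 to 100939594), the transcription factor of the pathway, was the second most abundant of the genes in WT. It had 63.7, 60.9 and 63.3 FPKM in WT and 55.9, 55 and 48.5 FPKM in KO. The groups did not overlap, with KO replicate 4 the lowest. Stat3 fell by 15.2% (log2 fold change -0.24, SE 0.07, limma adjusted p = 0.0274), the smallest change among the 6 called genes. Stat3 no longer passed when replicate 2 or 4 of WT was left out (0.0572 and 0.092 as adjusted p), when replicate 4 of KO was left out (0.0913), or with median-ratio scaling (0.0548).

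The feedback genes showed another picture. Socs3 (gene ID 12702, chromosome 11 from 117966079 to 117970336), the STAT3-induced inhibitor of gp130, had 25.2, 24.5 and 30.5 FPKM in WT and 32.2, 31.3 and 28.5 FPKM in KO. The groups overlapped through replicate 4, which was the highest WT library and the lowest KO library. Its mean was 26.7 ± 3.27 FPKM in WT and 30.7 ± 1.9 in KO (log2 fold change 0.20, 95% confidence interval -0.01 to 0.41, limma adjusted p = 0.115). Without WT replicate 4 it passed, with a log2 fold change of 0.29 and an adjusted p of 0.039.

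Socs2 (gene ID 216233, chromosome 10 from 95383903 to 95417321), best known as the inhibitor of growth hormone signalling through JAK2 and STAT5, had 5.62, 4.82 and 5.08 FPKM in WT and 6.15, 5.6 and 5.66 FPKM in KO. WT replicate 2 lay just above KO replicate 3, and the other values were separate. The log2 fold change was 0.14 with a 95% confidence interval from -0.06 to 0.34 (limma adjusted p = 0.229).

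Socs1 (gene ID 12703, chromosome 16 from 10783808 to 10785536), the inhibitor of JAK kinases that is induced above all by interferon, was low and scattered. It had 3.46, 4.35 and 3.08 FPKM in WT and 3.69, 3.11 and 4.39 FPKM in KO, from 155 to 228 reads per library. The groups covered nearly the same range. The log2 fold change was 0.03, with a 95% confidence interval from -0.27 to 0.33 (limma adjusted p = 0.867), so a change of either sign within that interval remained possible. Its sign turned without WT replicate 4 (-0.06) or KO replicate 4 (-0.07).

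In limma 0 of the 3 SOCS genes passed, and 0 did at an unadjusted p under 0.05. Limma-voom on the recovered reads called 2 of them higher, Socs2 (log2 fold change 0.22, adjusted p = 0.0327) and Socs3 (0.26, adjusted p = 0.0342), set beside 22.4% of all tested genes called higher by that tool. The authors' deposited table likewise gives q = 0.0434 for Socs2 and q = 0.0372 for Socs3, both higher in KO, where 13.6% of its 17686 genes are higher at q under 0.05. For the 7 genes upstream, the authors' deposited table gives 5 as lower at that threshold, with Stat3 at q = 0.0862 and Il6ra at q = 0.439, and 15.7% of its genes are lower. Limma-voom called the same number lower, 5 of the 6 it tested, beside 24.9% of all tested genes, and Stat3 did not pass it (adjusted p = 0.0533).

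**Figure D2:**
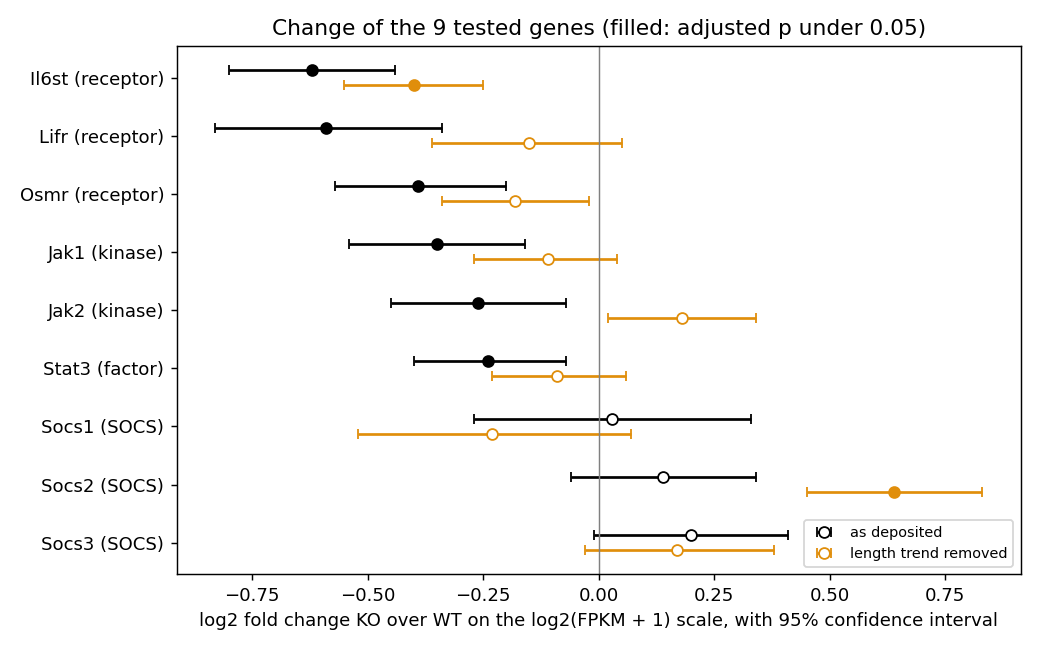
Log2 fold change KO over WT with its 95% confidence interval for the 9 tested genes, with FPKM as deposited (black) and after removal of a trend on transcript length from each library (orange); filled points have an adjusted p under 0.05. As deposited, 6 genes lie left of 0 and the SOCS genes straddle it; after the removal only Il6st (-0.40) and Socs2 (0.64) are filled.

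The balance of feedback gene to receptor was compared within each library, which cancels any factor that scales a whole library but not one that depends on transcript length. The ratio of Socs3 to Il6st FPKM was 0.339, 0.342 and 0.407 in WT replicates 2, 3 and 4, and 0.614, 0.661 and 0.659 in KO replicates 2, 3 and 4. All KO ratios were above all WT ratios, and the mean was 1.78 times that of WT (exact two-sided permutation p = 0.1, the smallest possible). Socs3 relative to Stat3 was 0.427 ± 0.0476 in WT and 0.578 ± 0.00953 in KO, also without overlap. For Socs2 over Il6st the means were 0.0702 ± 0.0047 and 0.122 ± 0.00748, and for Socs1 over Il6st 0.0495 ± 0.01 and 0.0792 ± 0.0195. Within the upstream genes the proportions also shifted: Stat3 over Il6st was 0.85 ± 0.00551 in WT and 1.12 ± 0.0462 in KO, and Osmr over Il6st 0.34 ± 0.0111 and 0.399 ± 0.0155, again with separate groups. The change of Socs3 exceeded that of Il6st by 0.82 on the log2 scale as deposited and by 0.57 with the length trend (described below) removed. For Socs1 the same difference went from 0.65 to 0.17, and for Socs2 from 0.76 to 1.04, none of them tested. All of these ratios but Socs3 over Stat3 share Il6st, so they are not separate observations. The exact permutation test of none of them can go below 0.1. Il6st itself had a log2 fold change of -0.62, beside a median of -0.03 over all tested genes. A gene without change therefore also rises relative to Il6st, as Socs1 did at a log2 fold change of 0.03. How many of all tested genes have separate ratios to Il6st was not tested.

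**Figure D3:**
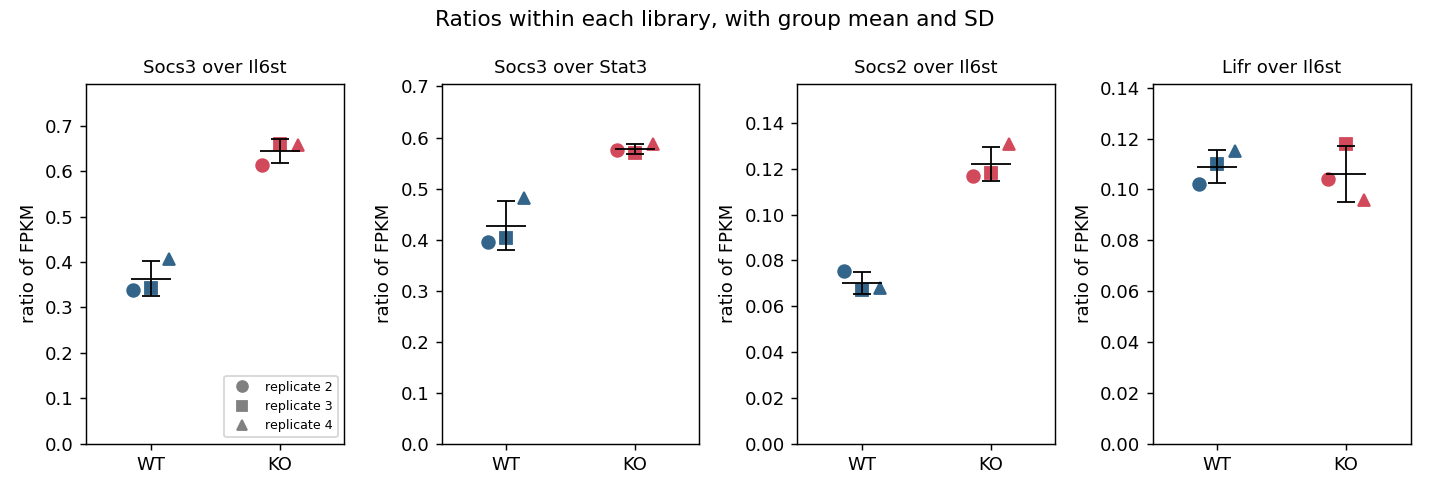
Ratio of FPKM within each library for Socs3 over Il6st, Socs3 over Stat3, Socs2 over Il6st and Lifr over Il6st (points by replicate, bars for mean and SD, n = 3, axes from 0). The first 3 ratios separate the genotypes, with means of 0.363 and 0.645 for Socs3 over Il6st, and Lifr over Il6st does not.

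Transcript length differed between the genes compared and moved with the result. The length implied by the deposited values was 4601 nt for Stat3, 5430 nt for Osmr, 5719 nt for Il6st, 6041 nt for Jak1, 10756 nt for Lifr and 10936 nt for Jak2, against 1340 nt for Socs1 and 2732 nt for Socs3. Socs2 was the exception among the SOCS genes, at 13086 nt, the longest of the 10. It lay above 0 at a length where most genes lay below. An implied length is that of the gene model used for the FPKM, not of the transcripts present in these cells.

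**Figure D4:**
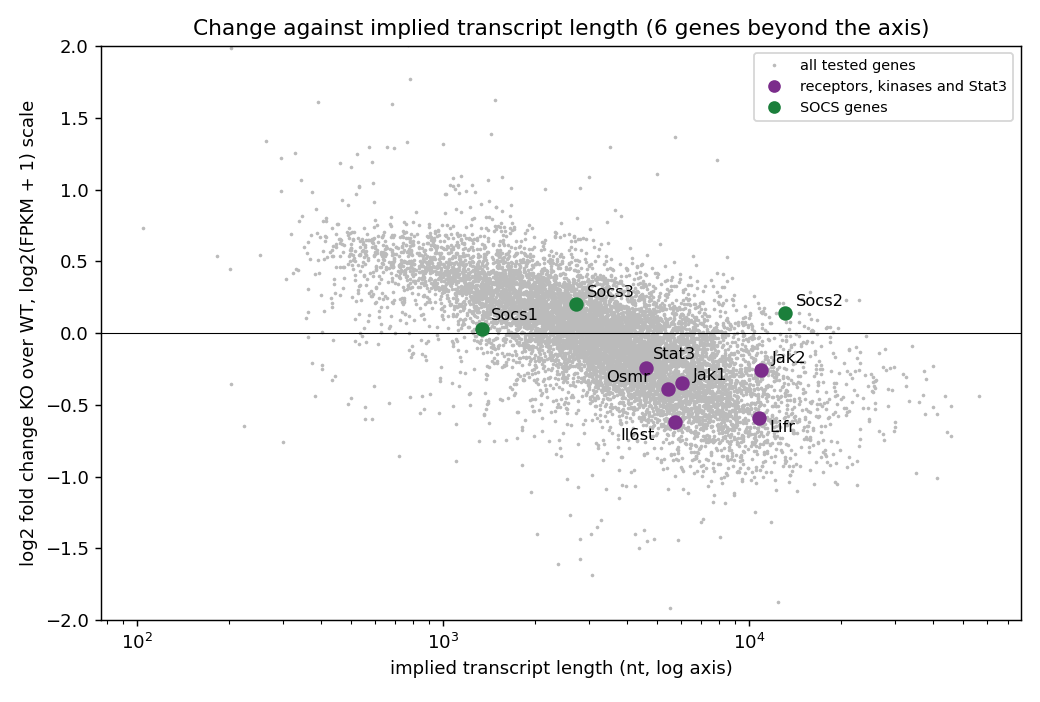
Log2 fold change KO over WT against implied transcript length (log axis) for all tested genes (grey) and the 9 tested members (purple for receptors, kinases and Stat3, green for SOCS genes); 6 genes lie beyond the axis of ±2. The cloud slopes down with length, Il6st at -0.62 lies in its lower part for its length, and Socs2 at 0.14 lies above most genes of its length.

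With the linear length trend removed from each library, Il6st remained lower (log2 fold change -0.40, SE 0.07, limma adjusted p = 0.00629), with 9.63% of all tested genes called lower in that fit. Lifr (-0.15, adjusted p = 0.258), Osmr (-0.18, adjusted p = 0.109), Jak1 (-0.11, adjusted p = 0.268) and Stat3 (-0.09, adjusted p = 0.366) kept their sign and lost their calls. Jak2 turned to 0.18 (adjusted p = 0.109) and Socs1 to -0.23 (adjusted p = 0.245). Socs3 changed little, to 0.17 (adjusted p = 0.201). Socs2 went to 0.64 (SE 0.08, adjusted p = 0.00351) and was called higher, as were 10.4% of all tested genes. The trend removed from Socs2 was -0.50, against a log2 fold change of 0.14 as deposited. Its size rests on the implied length of 13086 nt, which is that of the gene model. In this fit 1041 genes were lower and 1128 higher, against 2790 and 1982 before it. Genotype and the length trend cannot be told apart in these libraries, whose slopes on log2 length were 0.101 to 0.135 in WT and -0.155 to -0.091 in KO.

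The order of the levels also differed between the genotypes. In WT Il6st was the most abundant, above Stat3 beyond their spread, while Stat3 and Jak1, Socs3 and Osmr, and Jak2 and Lifr overlapped as neighbours. In KO Stat3 at 53.1 ± 4.05 FPKM, Il6st at 47.7 ± 4.53 and Jak1 at 45 ± 3.79 formed the top, where each overlapped with the next. Socs3 was separate from Osmr in KO, at 30.7 ± 1.9 against 19 ± 1.77 FPKM, and the 2 had overlapped in WT at 26.7 ± 3.27 and 25.1 ± 1.15. Every Socs2 value was below every Lifr value in WT and above every one in KO, where the nearest pair was 5.6 and 5.57 FPKM and the means differed by less than the summed SDs. Il6ra was last in both, under 1 FPKM on average. These orders are those of FPKM as deposited, and the order with the length trend removed was not tested. Lifr lost its call with that trend removed (limma adjusted p = 0.258).

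Other genes of the pathway were examined in 6 lists, with 80 of 82 symbols found and 65 tested. Over these 65 genes, 22 were called lower and 9 higher, with a median log2 fold change of -0.17, beside 25.8% lower, 18.3% higher and a median of -0.03 over all tested genes. Bcl6 and Csf3r averaged under 1 FPKM in 1 genotype and entered the test through the other, and without them the counts were 21 and 8 of 63. With the length trend removed 8 of the 65 were lower and 3 higher, beside 9.63% and 10.4% of all tested genes. Csf3r was among those 3. Up to 3 called genes per list with the smallest p are named by rule, and others named below were picked after their values were seen.

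Ligands of the family were scarce. Of 10 found, 8 lay under the filter, with group means of 0.0213 to 0.39 FPKM and 0 to 48 reads per library, among them Lif, Osm and Il11. Lif had 14, 30 and 44 reads in WT and 6, 7 and 4 in KO, with separate groups, and the authors' deposited table gives it as lower in KO (log2 fold change -2.22, q = 0.023), the 1 ligand that table calls. Il6 itself had 3.14, 2.71 and 4.27 FPKM in WT and 2.69, 3.11 and 2.02 in KO, with overlapping groups (log2 fold change -0.27, SE 0.15, limma adjusted p = 0.173). Clcf1, which encodes a cytokine of the same family, had 2.35 ± 0.123 and 2 ± 0.506 FPKM. Limma called neither of the 2 at an adjusted or unadjusted p under 0.05, nor did limma-voom, and with the length trend removed Il6 was lower (-0.58, adjusted p = 0.0395).

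The proteases that shed receptor chains from the cell surface, of which ADAM10 and ADAM17 both cut the IL-6 receptor, were lower. Adam10 went from a mean of 44.5 ± 4.31 FPKM to 27.9 ± 1.07 (log2 fold change -0.65, SE 0.08, limma adjusted p = 0.000564) and Adam17 from 27.9 ± 2.83 to 18.1 ± 1.96 (-0.60, SE 0.10, adjusted p = 0.0016). Both also passed with the length trend removed, at -0.49 and -0.45. The remaining tested receptors of the list were Il11ra1 (15.8 ± 1.1 and 17.9 ± 0.625 FPKM) and Il27ra (9.62 ± 0.35 and 8.47 ± 0.695), which did not pass. Csf3r, the receptor of a neutrophil growth factor and 1 of the neutrophil markers described below, had 0.592, 0.607 and 0.98 FPKM in WT and 1.33, 1.68 and 1.52 in KO. It reached 1 FPKM in the KO libraries alone and so entered the test through the group where it was high, and its limma call (adjusted p = 0.00584) is not counted as a result.

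Among the other kinases and STATs, 1 of 7 tested genes fell (14.3%, beside 25.8% of all tested genes) and 6 did not pass. Stat5b, a factor of growth hormone and prolactin signalling, fell from 11 ± 0.272 to 8.31 ± 1.06 FPKM (log2 fold change -0.38, limma adjusted p = 0.0104), and had -0.05 with the length trend removed (adjusted p = 0.735). Jak3, a kinase of lymphoid cytokine receptors, was abundant here and had nearly equal means of 65.3 ± 6.34 and 66 ± 0.215 FPKM.

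Of 6 adaptors that connect gp130 to the MAPK and PI3K arms, 5 fell (83.3%, beside 25.8% of all tested genes) and Grb2 did not pass. With the length trend removed 1 of the 6 was lower, beside 9.63% of all tested genes. Ptpn11, which encodes the phosphatase SHP2 that docks on gp130 at the site SOCS3 also uses, had 33.7 ± 1.58 FPKM in WT and 23.2 ± 2.18 in KO (log2 fold change -0.52, SE 0.08, limma adjusted p = 0.00126). It also passed with the length trend removed (-0.31, adjusted p = 0.0178). Sos1, an exchange factor for RAS, fell from 3.71 ± 0.508 to 2.21 ± 0.167 FPKM, and the docking protein gene Gab2 from 12 ± 0.814 to 9.21 ± 0.971. Neither Sos1 (adjusted p = 0.232) nor Gab2 (adjusted p = 0.342) passed after that removal. The docking protein gene Gab1 went from -0.30 to 0.23 (adjusted p = 0.13) and the adaptor gene Shc1 from -0.26 to -0.18 (adjusted p = 0.119).

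Of 16 other negative regulators 5 were lower (31.2%) and 4 higher (25%), shares set beside 25.8% and 18.3% of all tested genes, and the median log2 fold change was 0.01. With the length trend removed 0 of the 16 were lower and 2 higher, beside 9.63% and 10.4% of all tested genes. The 2 were the phosphatase genes Ptpn2 (0.44, limma adjusted p = 0.0123) and Ptpn6 (0.71, adjusted p = 0.0486). The remaining SOCS genes fell: Socs5 from 6.53 ± 0.662 to 3.94 ± 0.384 FPKM (log2 fold change -0.61, adjusted p = 0.00155), Socs7 from 4.51 ± 0.182 to 2.83 ± 0.372 (-0.53, adjusted p = 0.0029), Socs4 from 3.82 ± 0.684 to 2.28 ± 0.164 and Socs6 from 3.24 ± 0.661 to 2.27 ± 0.297, all by limma. These 4 genes, which are less dependent on cytokine induction than Socs1 to Socs3, have implied lengths of 6287 to 9926 nt, and none of the 4 passed limma with the length trend removed. Before adjustment, 3 of the 4 were under 0.05 in that limma fit, Socs4 at 0.0366, Socs5 at 0.0348 and Socs7 at 0.028. The call of Socs6 (adjusted p = 0.0411) was also lost when WT replicate 4 was left out (0.167) or any 1 of the KO libraries (0.0522 to 0.133). Cish, the STAT5-induced member of the family, had 3.4 ± 0.757 FPKM in WT and 4.22 ± 0.306 in KO (adjusted p = 0.133).

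SOCS proteins act in part by recruiting a ubiquitin ligase, and its subunits divided. Elob, which encodes elongin B, rose from 207 ± 12 to 295 ± 8.52 FPKM (log2 fold change 0.51, limma adjusted p = 0.000769), and so did Rnf7, from 58.1 ± 0.696 to 72.2 ± 1.93, and Eloc, from 15.5 ± 0.536 to 18.2 ± 1.34 (adjusted p = 0.044), while the scaffold gene Cul5 fell from 4.34 ± 0.291 to 2.92 ± 0.234 FPKM (adjusted p = 0.00462). The implied lengths were 508 nt for Elob, 1232 nt for Rnf7 and 3064 nt for Eloc. With the length trend removed Elob was at -0.07 (adjusted p = 0.421), Rnf7 at 0.02 (adjusted p = 0.823) and Cul5 at -0.20 (adjusted p = 0.134), while Eloc kept its size, from 0.22 to 0.24, and just missed the threshold (adjusted p = 0.0503). Ptpn6, which encodes the phosphatase SHP-1 of blood cells, rose from 3.07 ± 1.25 to 5.74 ± 1.06 FPKM (log2 fold change 0.77, adjusted p = 0.0185), and missed the threshold without KO replicate 3 (adjusted p = 0.0508). WT replicate 3 was its lowest library at 1.62 FPKM, and without it the log2 fold change of Ptpn6 was 0.48 (adjusted p = 0.0234). Eloc missed it without replicate 3 or 4 of either genotype (adjusted p of 0.0969 to 0.146).

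Of 29 tested genes that STAT3 can switch on, 9 fell (31%), 4 rose (13.8%) and 16 did not pass, beside 25.8% lower and 18.3% higher among all tested genes. Their median log2 fold change was -0.16. Bcl6, a transcriptional repressor counted among the 9, reached 1 FPKM in the WT libraries alone (1.16, 1.26 and 1.38, against 0.887, 0.677 and 0.843 in KO), and without it 8 of 28 fell. Fosl2, an AP-1 factor, went from 18.3, 14.7 and 22.9 FPKM in WT to 7.01, 8 and 5.82 in KO (log2 fold change -1.29, SE 0.15, limma adjusted p = 0.000518). The survival gene Mcl1 fell from 46.5 ± 4.63 to 30.8 ± 1.34 FPKM, and Fgl2, a prothrombinase of endothelium and macrophages, from 6.94 ± 1.05 to 3.12 ± 0.779. These 3 and Zfp36, which encodes an mRNA decay factor, were the targets still lower with the length trend removed. They were 4 of 29, and 0 were higher, beside 9.63% and 10.4% of all tested genes in that fit. Mcl1 went from -0.58 to -0.21 in that fit (adjusted p = 0.0484) and did not pass when the replicate number was added to it (adjusted p = 0.126). The remaining targets that limma called lower as deposited were Tnfaip3 (-0.42, adjusted p = 0.00832), Hif1a (-0.48, adjusted p = 0.0144), Steap4 (-0.57, adjusted p = 0.0417) and Serpina3n (-0.75, adjusted p = 0.0423). None of them passed with the length trend removed.

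Several targets often used as readouts of STAT3 did not pass limma, such as Bcl3 (36.2 ± 2.06 and 37.4 ± 1.86 FPKM), Pim1 (12 ± 1.21 and 14.6 ± 1.47), Cebpd (17.9 ± 2.59 and 18.2 ± 0.369) and Junb (68 ± 8.7 and 63.5 ± 2.99). Pim1 and Pim3, which encode survival kinases, had log2 fold changes of 0.26 (adjusted p = 0.0548) and 0.15 (adjusted p = 0.108) in limma. Limma-voom called both higher, at 0.33 (adjusted p = 0.0167) and 0.21 (adjusted p = 0.0401), and the authors' deposited table does so with q = 0.0121 and q = 0.0233. Each of these sources thus has 6 targets higher, and each has 9 lower. Over all its genes, limma-voom called 22.4% higher and 24.9% lower, and the deposited table has 13.6% and 15.7%. The acute-phase gene Saa3 was scattered in WT, at 2.46 ± 2.04 and 4.91 ± 0.502 FPKM (adjusted p = 0.0801). The 4 that rose in limma were Timp1, Lrg1, Gadd45g and Hp, with Lrg1, which encodes an angiogenic glycoprotein, at 85.1 ± 10.4 and 104 ± 7.98 FPKM (adjusted p = 0.035). Lrg1 did not pass without replicate 2 or 4 of either genotype (adjusted p of 0.0811 to 0.12). The implied lengths of the 4 were 890 to 1353 nt, and the removal of the length trend left Timp1 at 0.09, Lrg1 at 0.03, Gadd45g at 0.13 and Hp at 0.36, with adjusted p of 0.169 to 0.854.

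**Figure D5:**
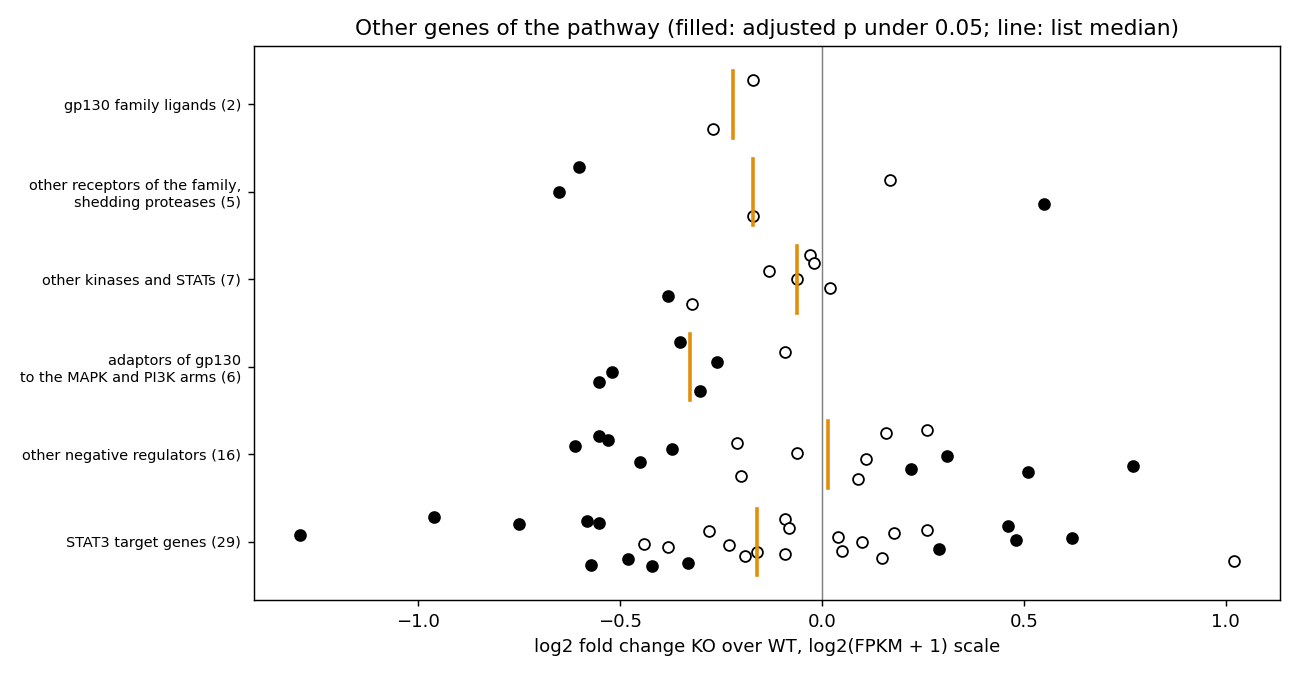
Log2 fold change KO over WT of each tested gene in the 6 lists (one point per gene, with the number tested in brackets; vertical scatter within a list has no meaning); filled points have an adjusted p under 0.05 and the orange line is the list median. The adaptors lie left of 0 with a median of -0.33, and the negative regulators and STAT3 targets spread to both sides, from -1.29 to 1.02.

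Markers of other cells moved with genotype beside these results. The summed FPKM of 8 neutrophil markers was 14.8 to 19.4 in WT and 35.9 to 56.9 in KO, and S100a8 and S100a9 rose. For 8 lymphocyte markers the sums were 8.23 to 10.1 and 17.1 to 26.4, with Cd79a and Cd79b higher, and for 12 monocyte and macrophage markers 95.7 to 233 and 231 to 356, with 7 of 12 higher. In the other direction, 4 of 5 tested fibroblast markers fell, with sums over 9 genes of 43.3 to 52.3 and 29.1 to 34.4, and 7 of 9 mural markers fell, with sums of 457 to 598 and 343 to 537. Of 13 endothelial markers 6 fell and 2 rose (4874 to 5009 and 4464 to 4877), and of 7 tested cardiomyocyte markers 1 fell and 2 rose (131 to 188 and 173 to 208). The neutrophil and fibroblast counts leave out Csf3r, Lum and Col1a1, which averaged under 1 FPKM in 1 genotype. All of these calls are those of limma on FPKM as deposited, where 25.8% of all tested genes were lower and 18.3% higher. The marker lists were not counted with the length trend removed. Ptprc, the gene of the CD45 protein against which the cells were sorted, had 1.09, 0.871 and 1.71 FPKM in WT and 1.41, 1.01 and 1.07 in KO, with overlapping groups (limma adjusted p = 0.895). Each marker was above 0 FPKM in at least 1 library. The part of these cells in the results above was not tested.

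The genes whose profiles over the 6 libraries were closest to those of 3 members were found by the root-mean-square difference of log2(FPKM + 1), each gene centred on its own mean, among 10399 tested genes. For Il6st they were Pcm1 (0.024), Glce (0.030) and Map3k2 (0.030), and for Stat3 they were Mfn2 (0.016), Swap70 (0.019) and Hnrnpm (0.019). For Socs3 the closest were P2rx4 (0.038), Mocos (0.042) and Gtf2h4 (0.046), at larger distances than for Il6st and Stat3. Map3k2 reached 1 FPKM in the WT libraries alone (1.63, 1.5 and 1.66, against 0.864, 0.718 and 0.625 in KO). Its mean FPKM in KO was 0.462 of WT, a larger reduction than that of Il6st at 0.647. The 1 added to each FPKM shrinks the change of a gene this low, and its closeness to Il6st without it was not tested.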

How the data were processed

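Per the labels' protocols, TRIzol was used to extract RNA of the bead-sorted cells, and a TruSeq stranded mRNA kit to make the libraries. The authors deposited FPKM for each gene in each library, and a comparison table with mean normalized signal per group, fold change as a ratio, log2 fold change, p-value and q-value, per the file headers. Per the submitters' processing notes, which give no roles, the tools were DESeq2 1.22.1, featureCounts 1.6.2, Cufflinks, HISAT2 2.1.0, fastp 0.19.3, GATK 4.0.11.0 and StringTie 1.3.4d, with the mm10 build. Whether reads were counted by strand is not given in the sources used here.

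The test was limma 3.58.1 in R 4.3.3, fitted with a mean-variance trend and genotype as the term to log2(FPKM + 1) of the 10806 genes that reached 1 FPKM in 3 or more libraries, with calls at a p under 0.05 after Benjamini-Hochberg adjustment. Library factors solved from the FPKM and the deposited group means gave whole reads (100.0% whole within 0.05 reads up to 1000 reads), implied lengths and the counts for limma-voom with median-ratio scaling. These depths cover counting error only. The length trend was a straight line on log2 length, fitted per library to each gene's deviation from its mean. Coordinates come from the RefSeq table of GRCm38.p6, in which 20334 gene IDs of the 20893 matched. Members and lists were chosen with earlier results of these data known. Genes named by rule were the 10 members, Ccl28, up to 3 called genes per list by p, and 3 closest profiles for each of Il6st, Stat3 and Socs3. Other genes of the lists were named after their values were seen. A search of promoter sequence for STAT motifs was planned and is not analysed here. Some genes of the lists are not reported here. Scripts were tested on simulated data. The other steps used scipy 1.17.1, numpy 2.4.6, matplotlib 3.10.9 and pandas 2.3.3 in Python 3.11.15.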

Additional observations from a re-analysis of the deposited data

How the results depend on the processing

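Il6st was lower and passed under all 15 other settings (log2 fold change -0.72 to -0.40), and Lifr, Osmr and Jak1 passed under 13 of 15, all but the length removal with and without the replicate number. Removing the length trend took the called genes from 4772 to 2169, the members called lower from 6 to 1 and those called higher from 0 to 1. With the replicate block added to that removal the counts were 818, 1 and 1. Jak2 turned to 0.18 in both fits, Gab1 to 0.23, Socs1 to -0.23 and Elob to -0.07, and Pim3 was at -0.02 with quantile normalization. Members called higher were 1 with quantile normalization (Socs2), 1 with median-ratio scaling (Socs3) and 2 with limma-voom. Leaving out single libraries gave 0 to 1 called higher (Socs3 without WT replicate 4) and moved Socs1 between -0.07 and 0.14, below 0 without WT replicate 4 (-0.06) or KO replicate 4 (-0.07). Jak2 passed in 7 of 15 settings and Stat3 in 6. Same-numbered libraries did not deviate together (correlations -0.195, -0.349 and -0.222), and differently numbered ones had correlations of 0.002 to 0.199. The deviations were centred on groups of 3 libraries, which ties these values to each other. They cannot decide whether the numbers pair the libraries. The replicate block alone gave 3749 called genes and 4 members lower, with Jak2 (adjusted p = 0.0844) and Stat3 (adjusted p = 0.07) not passing. The cause of these shifts was not tested. The lowest read counts among the members were those of Il6ra (77 to 146 per library) and Socs1 (155 to 228).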
